A study of Homo sapiens with 4 samples.

Results

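Tight junctions seal the space between neighbouring epithelial cells and are built from membrane proteins held together by cytoplasmic scaffolds. The 9 genes described here are CLDN1, CLDN2, CLDN3, CLDN4, CLDN7 and CLDN12, which encode claudins, OCLN (occludin), MARVELD2 (tricellulin) and TJP1 (the scaffold ZO-1). The set was chosen with earlier results of these data known. Its rows were taken by gene symbol in the deposited target names, and all 9 were found among 20322 targets. All 9 passed the low-count filter that left 12113 genes for testing. Each is represented by a single transcript in the deposited table.

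Claudins form the strands of the junction, and the mix of claudins in a cell sets which ions and solutes can pass between cells. Some claudins seal the strand and others, of which claudin-2 is the best known in the gut, line pores for small cations and water. Occludin and tricellulin belong to the MARVEL family of membrane proteins, and ZO-1 ties the strands to actin. IMP1 (gene symbol IGF2BP1) is an RNA-binding protein of oncofetal tissues that alters the stability and translation of the mRNAs it binds, and it has been reported elsewhere to raise occludin in intestinal epithelium.

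RNA came from 4 samples of HT-29 cells, an epithelial line established from a human adenocarcinoma of the colon. The IMP1-OE group (2 libraries) had its IMP1 gene targeted with CRISPR/Cas9 and then received a PiggyBac vector with FLAG-tagged IMP1 and a short UTR, while the null group (2 libraries) had the same targeting and an empty PiggyBac vector. All lines were grown in puromycin and, per the labels, derive from a liver metastasis in a mouse; unedited HT-29 cells are not part of the comparison, so every difference is between cells with IMP1 put back and cells with an empty vector. Each genotype was represented by 2 cell lines per the design text. The labels do not say which line each library came from. Nor do they say whether the 2 libraries of a group are separate clones, cultures or technical replicates. The p-values therefore reflect the spread between these libraries alone, which could be technical.

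Library totals ran from 9343429 to 10594813 counts, and ARSI, the gene of an arylsulfatase, took 8.01% and 12.4% of them in IMP1-OE and 17.8% and 17.3% in null. IGF2BP1 had 71 and 112 counts in IMP1-OE against 37 and 16 in null, the order that the labels give. Its difference was not called (log2 fold change 1.69, SE 0.56, edgeR unadjusted p = 0.0235, edgeR adjusted p = 0.453). The epithelial markers EPCAM, CDH1, KRT8, KRT18, KRT19, KRT20, VIL1 and LGALS4 each had at least 977 counts in every library. The adhesion gene CEACAM5 had 67 and 107 counts in IMP1-OE and 606 and 35 in null, so the null libraries stood apart, and the intestinal factor CDX2 had 0 and 3 counts in IMP1-OE and 47 and 2 in null. Of 6 fibroblast, 6 endothelial, 6 leukocyte and 6 hepatocyte markers, the numbers past the low-count filter were 1, 2, 3 and 1. The T cell gene CD3E, the endothelial gene KDR and the hepatocyte genes ALB, APOA1 and CYP3A4 had no count in any library. The pan-leukocyte gene PTPRC had 0 and 5 counts in IMP1-OE and 0 and 0 in null, the endothelial gene CDH5 had 0 and 20 in IMP1-OE and 1 and 1 in null, and the endothelial gene PECAM1 had 33 and 23 in IMP1-OE and 21 and 24 in null. The summed fibroblast markers stood at 6.28 and 2.09 CPM in IMP1-OE and 13.1 and 2.52 CPM in null (CPM, counts scaled to library size with TMM factors, here throughout). The endothelial sum was 4.85 and 4.94 CPM in IMP1-OE against 4.11 and 2.95 CPM in null, and the leukocyte sum, mostly of CD14 and CD68, was 29.1 and 17.1 CPM against 36.5 and 68.8 CPM in null. The hepatocyte sum of 686 and 725 CPM in IMP1-OE against 438 and 225 CPM in null was nearly all SERPINA1, which gut epithelium also expresses. The part of these markers in the results was not tested.

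CLDN3, CLDN4 and CLDN7 were the most abundant of the 9 mRNAs per length in all 4 libraries. MARVELD2 and CLDN1 were the least abundant, except that CLDN2 was just below CLDN1 in null replicate 1. Between genes, levels are compared as CPM per kilobase of the deposited transcript, a scale that would understate a gene whose cells use a shorter transcript. On that scale CLDN3 stood at 160 ± 35.3 in IMP1-OE and 201 ± 12.6 in null (mean ± SD, n = 2 libraries in each group, as for all means here). CLDN4 stood at 87.8 ± 8.62 and CLDN7 at 75.4 ± 17.9 CPM per kilobase in IMP1-OE, and at 132 ± 36.5 and 118 ± 22.7 in null. The ranges of CLDN4 and CLDN7 overlapped within each group, whereas that of CLDN3 lay above both and those of all others below both. The place of CLDN3 above CLDN4 rests on the deposited transcript lengths of 1274 and 4108 nt. In counts CLDN4 was above CLDN3 in every library, at 4053 and 3531 against 2482 and 1816 in IMP1-OE. In null it was at 4454 and 5916 against 2733 and 2235.

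TJP1 and CLDN12 followed, at 29.7 ± 0.589 and 25.3 ± 3.45 CPM per kilobase in IMP1-OE and 30.4 ± 6.90 and 29.2 ± 16.6 in null, and their ranges were apart in IMP1-OE but overlapped in null. CLDN2 ranked above OCLN in IMP1-OE, at 13.3 ± 0.725 against 10.0 ± 0.179 CPM per kilobase, and below it in null, at 9.78 ± 1.53 against 15.7 ± 3.74. The ranges of CLDN2 and OCLN did not overlap in either group, so these neighbours changed places. CLDN1 (4.17 ± 0.192 in IMP1-OE, 8.54 ± 3.37 in null) and MARVELD2 (3.98 ± 0.392 in IMP1-OE, 5.70 ± 0.650 in null) overlapped in IMP1-OE, and in null the range of CLDN1 met that of CLDN2.

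**Figure D1:**
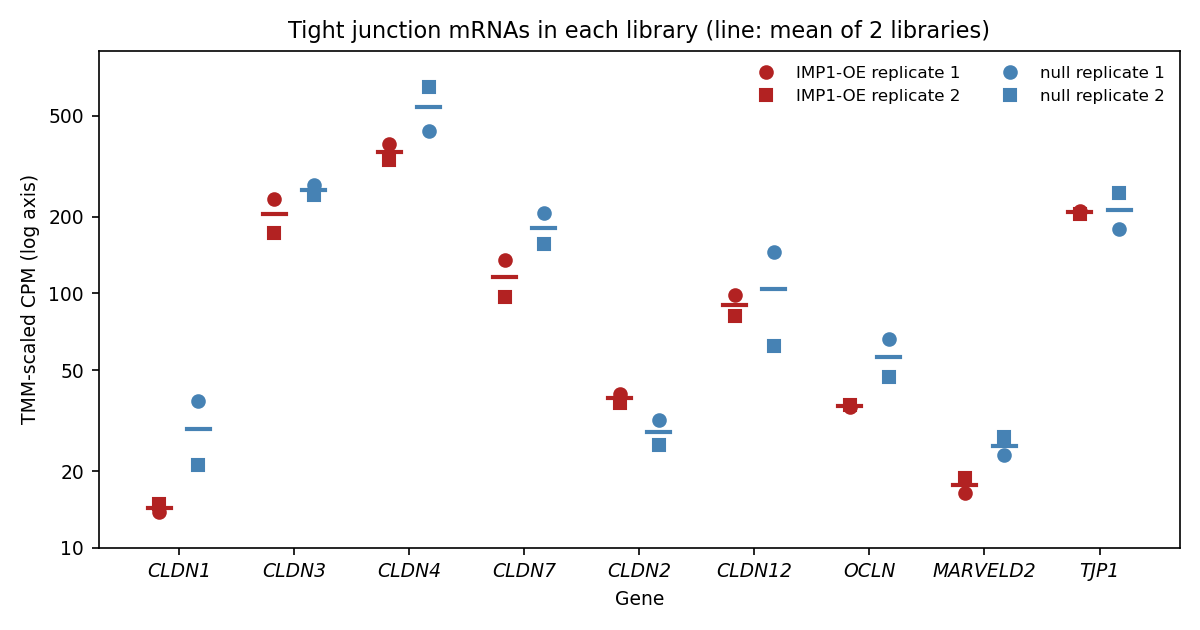
TMM-scaled CPM (log axis) of the 9 mRNAs in each library, IMP1-OE in red and null in blue, circles for replicate 1 and squares for replicate 2, with a line at the mean of the 2 libraries. CLDN2 is the gene whose IMP1-OE points both lie above its null points; for CLDN12 and TJP1 the null points span the IMP1-OE points, and for the other 6 genes both IMP1-OE points lie below.

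The table held 24 claudin targets, of which 15 had more than 3 counts in at least 1 library, 3 had at most 1 to 3 counts and 6 (CLDN8, CLDN17, CLDN22, CLDN24, CLDN25 and CLDN34) had none in any library. Where no count was found, a level of 3 counts, or 0.285 to 0.328 CPM depending on the library, cannot be told from none, and such limits cover counting error only. The 6 claudins described here held 98.6% and 97.5% of the summed claudin CPM per kilobase in IMP1-OE and 98.7% and 98.5% in null. CLDN3 made up 44.3% and 41.3% of that sum in IMP1-OE and 40.4% and 39.1% in null. CLDN4 made up 22.4% and 24.9% in IMP1-OE and 20.4% and 32.1% in null, so its share differed more between the null libraries than between the groups. CLDN7 held 21.0% and 19.1% in IMP1-OE and 25.8% and 20.7% in null.

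The pore-forming CLDN2 held 3.29% and 3.89% of the claudin sum in IMP1-OE and 2.09% and 1.77% in null, and the groups did not overlap. This was not particular to CLDN2. The shares of CLDN3, CLDN9 and, from few counts, CLDN5 were also higher in both IMP1-OE libraries than in either null library. That of CLDN23 was lower in both. CLDN1, CLDN3, CLDN4 and CLDN7, grouped here as sealing claudins, together held 88.7% and 86.6% in IMP1-OE and 88.7% and 93.1% in null. Replicate 1 of each group was at the same rounded value. The summed claudin level was 373 ± 64.1 CPM per kilobase in IMP1-OE and 505 ± 19.9 in null, a ratio of 0.739. Both IMP1-OE libraries, at 419 and 328 CPM per kilobase, were below both null libraries, at 519 and 491. The exact two-sided permutation test gave p = 0.333, which is the smallest value that 2 libraries against 2 can give. In bulk RNA, fewer cells that make a transcript and less of it per cell cannot be told apart.

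**Figure D2:**
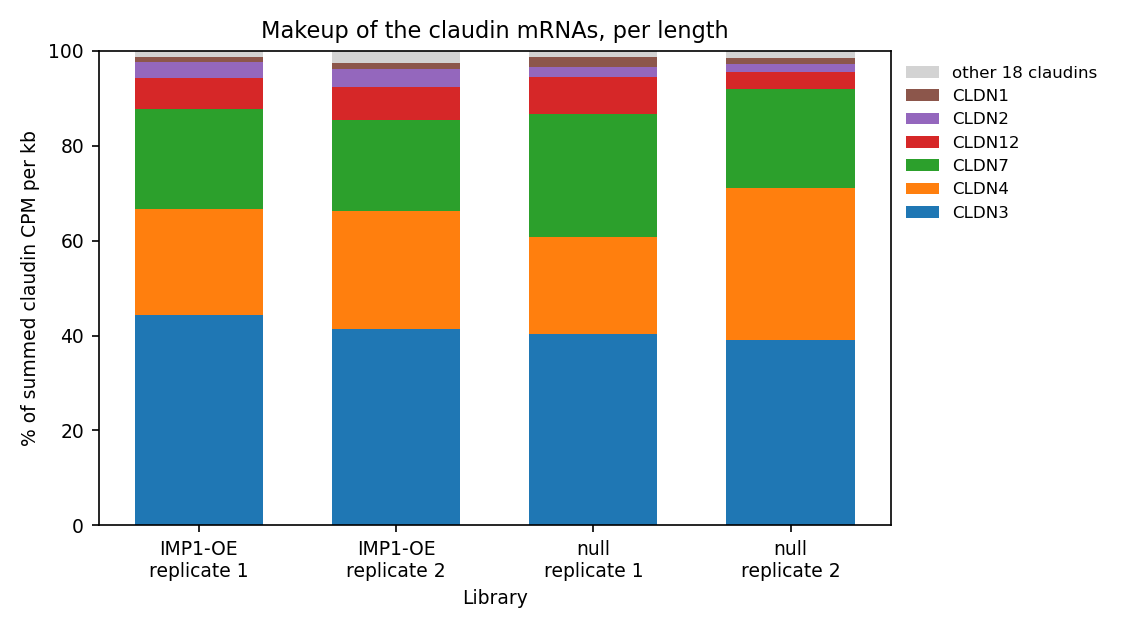
Share of each claudin in the summed claudin CPM per kilobase (y axis, %) in each library, IMP1-OE on the left and null on the right. CLDN3, at 39.1% to 44.3%, is the largest part of every bar, and the CLDN2 part is 3.29% and 3.89% in IMP1-OE and 2.09% and 1.77% in null.

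In IMP1-OE, 8 of the 9 mRNAs had a lower fitted level than in null and CLDN2 a higher one, but the edgeR quasi-likelihood test with Benjamini-Hochberg adjustment over all genes called 0 of the 9, with adjusted p-values from 0.453 to 0.969. It also called 0 of the 12113 genes tested (0%), where DESeq2 called 164, edgeR's likelihood ratio test 155 and limma-voom 1, and none of these tools called any of the 9. At an unadjusted p under 0.05, 4 of the 9 were lower and 0 higher, against 5.84% of all tested genes lower and 4.34% higher (10.2% in either direction, 1233 genes). The groups did not overlap for 7 of the 9, 6 lower and 1 higher in IMP1-OE, against 21.9% of all tested genes lower and 21.3% higher. A log2 fold change below 0 was found for 51.9% of all tested genes. The median log2 fold change of the 9 was -0.52, beside -0.02 over all tested genes. Because the 9 were chosen with earlier results of these data known, these comparisons with all genes describe the set and do not test it.

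The count of 4 depended on which libraries were used. Each omission leaves a group with 1 library, whose spread is then assumed to be that of the other group. Leaving out IMP1-OE replicate 1 gave a count of 1, against 2.49% of all tested genes lower at this level, and leaving out IMP1-OE replicate 2 gave 0, against 2.25%. Leaving out null replicate 1 gave 1, against 12.2%, a share near that of all genes, and leaving out null replicate 2 gave 4, against 6.7%. With library totals as the only scaling it was 2. The share of all tested genes lower at this level was not computed for that scaling. In either direction 1287 genes then had an unadjusted p under 0.05, beside 1233 with TMM scaling. The median log2 fold change of all tested genes was then 0.06. Without null replicate 1 edgeR called 1 of the 9, CLDN4, among 783 genes called in all (6.46%), with the spread taken from the IMP1-OE libraries.

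Among the sealing claudins, CLDN1 had the largest difference of the 9. Claudin-1 is needed for the barrier of skin and is often altered in colorectal tumours. It had 146 and 156 counts in IMP1-OE (13.9 and 14.8 CPM) against 385 and 194 in null (37.7 and 21.2 CPM). The IMP1-OE libraries were close to each other and both lay below the null libraries, which differed from each other by more than the nearest libraries of the groups did. CLDN1 was 2.05-fold lower in IMP1-OE (log2 fold change -1.04, SE 0.33, unadjusted p = 0.0204, edgeR adjusted p = 0.453). Leaving out null replicate 1 gave a log2 fold change of -0.56, and leaving out null replicate 2 gave -1.39.

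CLDN4, grouped here with the sealing claudins, binds a clostridial enterotoxin and had the most counts of the 9. It stood at 386 and 336 CPM in IMP1-OE and 436 and 647 CPM in null, so that null replicate 1 was nearer to the IMP1-OE libraries than to its own replicate. The difference was 1.5-fold lower in IMP1-OE (log2 fold change -0.59, SE 0.23, unadjusted p = 0.0473, edgeR adjusted p = 0.485). Without null replicate 1 the log2 fold change was -0.84 with an edgeR adjusted p of 0.0300, which rests on null replicate 2 as the single null library and on the spread of the IMP1-OE libraries, and without null replicate 2 it was -0.27.

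CLDN7, a claudin of the lateral membrane of intestinal cells that binds EPCAM, stood at 136 and 96.7 CPM in IMP1-OE and 206 and 157 CPM in null. All values of IMP1-OE were below those of null, and replicate 2 was the lower library in each group. It was 1.56-fold lower in IMP1-OE (log2 fold change -0.64, SE 0.24, unadjusted p = 0.0389, edgeR adjusted p = 0.474). With each library left out in turn the log2 fold change ran from -0.91 (without IMP1-OE replicate 1) to -0.41 (without IMP1-OE replicate 2). CLDN3, the next protein-coding gene to CLDN4 in the RefSeq annotation of GRCh38.p14 and another receptor of the same toxin, stood at 236 and 173 CPM in IMP1-OE and 267 and 245 CPM in null. The groups did not overlap, but their means were closer together than the IMP1-OE libraries were to each other, with a log2 fold change of -0.32 (SE 0.21, unadjusted p = 0.172, edgeR adjusted p = 0.635). It was -0.57 when IMP1-OE replicate 1 was left out and -0.10 when IMP1-OE replicate 2 was left out. Both neighbours were lower in IMP1-OE, and a difference between their changes was not tested.

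CLDN2, the claudin of cation and water pores, was the gene that lay higher in both IMP1-OE libraries. It had 423 and 392 counts in IMP1-OE (40.3 and 37.3 CPM) against 324 and 232 in null (31.7 and 25.4 CPM). The difference of 1.36-fold did not pass the test (log2 fold change 0.44, SE 0.21, unadjusted p = 0.0848, edgeR adjusted p = 0.536), and with each library left out in turn the log2 fold change ran from 0.29 to 0.61. Ratios of counts within a library do not depend on the scaling between libraries. There were 9.58 and 9.01 counts of CLDN4 per count of CLDN2 in IMP1-OE, against 13.8 and 25.5 in null. For CLDN7 the ratio to CLDN2 was 3.37 and 2.59 in IMP1-OE and 6.51 and 6.18 in null. Of the 8 other members, 7 had a ratio to CLDN2 that was lower in both IMP1-OE libraries than in either null library, as had 54.6% of all tested genes. The exception was CLDN12, at 2.46 and 2.19 in IMP1-OE and 4.61 and 2.45 in null, where the groups overlapped. Such ratios share the counts of CLDN2, and 2 libraries against 2 cannot give an exact permutation p under 0.333.

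CLDN12, a claudin that lacks the scaffold-binding end of most others, stood at 98.9 and 81.5 CPM in IMP1-OE and 146 and 62.2 CPM in null. The null libraries lay on both sides of the IMP1-OE libraries. Its log2 fold change was -0.21 (SE 0.40, unadjusted p = 0.620, edgeR adjusted p = 0.890) and turned to 0.54 without null replicate 1.

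Of the MARVEL proteins, OCLN had 375 and 385 counts in IMP1-OE (35.7 and 36.6 CPM) against 675 and 429 in null (66.0 and 46.9 CPM). The IMP1-OE libraries were nearly equal and both below null, and the null libraries differed more from each other than null replicate 2 did from IMP1-OE. OCLN was 1.56-fold lower in IMP1-OE (log2 fold change -0.64, SE 0.23, unadjusted p = 0.0315, edgeR adjusted p = 0.46). Without null replicate 1 the log2 fold change was -0.38, and without null replicate 2 it was -0.87. There were 1.13 and 1.02 counts of CLDN2 per count of OCLN in IMP1-OE, against 0.480 and 0.541 in null.

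MARVELD2, whose protein seals the corners where 3 cells meet and whose gene is the protein-coding neighbour of OCLN, had 172 and 198 counts in IMP1-OE (16.4 and 18.8 CPM) against 237 and 249 in null (23.2 and 27.2 CPM). Both IMP1-OE libraries were below both null libraries. The difference of 1.43-fold did not pass the test (log2 fold change -0.52, SE 0.24, unadjusted p = 0.0746, edgeR adjusted p = 0.520). With each library left out in turn its log2 fold change stayed between -0.63 and -0.40.

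TJP1, the gene of the scaffold ZO-1, stood at 211 and 206 CPM in IMP1-OE and 179 and 248 CPM in null. The null libraries lay on both sides of the IMP1-OE libraries, and the log2 fold change was -0.03 (SE 0.21, unadjusted p = 0.877, edgeR adjusted p = 0.969). Its sign turned with library totals as the only scaling (0.045) and when null replicate 2 was left out (0.22).

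**Figure D3:**
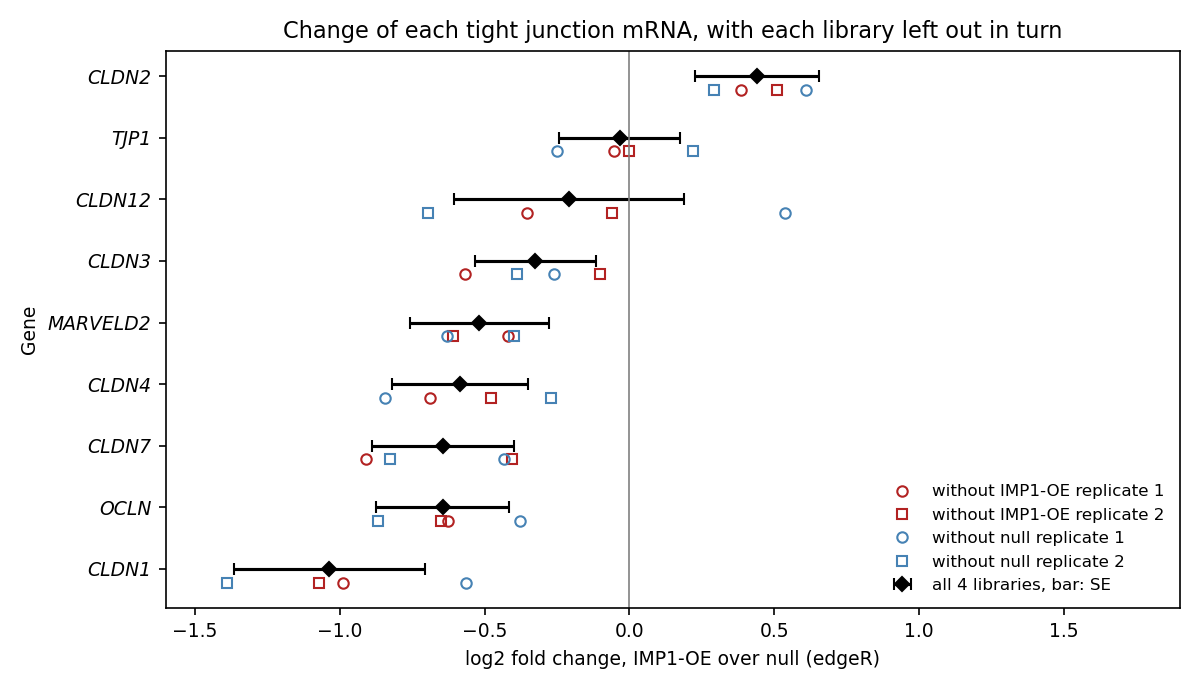
Log2 fold change of each mRNA, IMP1-OE over null (x axis; black diamond and bar, edgeR estimate and SE from all 4 libraries), with open symbols for the estimate without each library. CLDN2 stays to the right of 0 (0.29 to 0.61) and CLDN1 to the left (-1.39 to -0.56), while the points of CLDN12 lie between -0.70 and 0.54, depending on the null library left out.

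The authors' deposited table has an adjusted p of 0.285 for CLDN1, 0.366 for CLDN7, 0.367 for CLDN4 and 0.433 for OCLN, and 0.743 or more for the other 5. Of 12836 targets in the authors' deposited table, 164 had an adjusted p under 0.05 (1.28%), and none was among the 9. The unadjusted p was under 0.05 for the same 4 genes as in edgeR, against 7.54% of all targets with a p in the authors' deposited table. All 164 deposited calls had the sign of IMP1-OE over null. The log2 fold change of CLDN1 is -0.25 (SE 0.52) in the authors' deposited table, nearer to 0 than the -1.03 (SE 0.42) of DESeq2 without shrinkage on the same counts.

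The profile of CLDN1, the gene of the 9 with the smallest p, was most like those of UNC13B, PIP5K1B and PSAT1. UNC13B encodes a vesicle priming protein, PIP5K1B a phosphoinositide kinase and PSAT1 an enzyme of serine synthesis. The root mean square difference of their centred log2 CPM from that of CLDN1 over the 4 libraries was 0.105, 0.110 and 0.111, the smallest among 12112 genes. UNC13B stood at 13.0 and 14.1 CPM in IMP1-OE and 30.2 and 20.4 CPM in null. With 4 libraries such likeness is a description only.

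Of the 18 other claudins, 3 passed the low-count filter, and they were 1 lower and 2 higher in IMP1-OE. CLDN23 had 9 and 6 counts in IMP1-OE against 33 and 52 in null, with no overlap (log2 fold change -2.62, SE 0.73, unadjusted p = 0.0120, edgeR adjusted p = 0.435). CLDN9 had 57 and 70 counts in IMP1-OE and 58 and 25 in null, and its groups overlapped. Claudin-23 is found in differentiated cells of the colon surface. The remaining 15 had at most 11 counts in any library.

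Of 18 other tight junction genes, 13 were tested. In IMP1-OE 10 were lower and 3 higher, against 51.9% of all tested genes lower, with a median log2 fold change of -0.28. The groups did not overlap for 8 lower and 2 higher genes, against 21.9% and 21.3% of all tested genes. Such lower and higher counts were 3 and 4 for adherens junction, 1 and 1 for desmosome and 2 and 2 for junction contractility genes. They were 1 and 2 for polarity genes and 4 and 1 for the transcription factors described below. TJP3, the gene of the scaffold ZO-3, was at 55.5 and 45.7 CPM in IMP1-OE against 71.0 and 88.3 CPM in null, 1.57-fold lower (unadjusted p = 0.0213, edgeR adjusted p = 0.453), and it was the gene of this list with an unadjusted p under 0.05. MARVELD3, the remaining MARVEL protein of the junction, had a log2 fold change of -0.58 (unadjusted p = 0.0667, edgeR adjusted p = 0.510).

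Adherens junctions and desmosomes, the anchoring contacts below the tight junction, lay on both sides. Of 10 adherens junction genes, 5 were higher and 5 lower (median log2 fold change -0.09), and CTNND1, which encodes p120-catenin, was at 36.9 and 33.8 CPM in IMP1-OE against 76.0 and 46.6 CPM in null (unadjusted p = 0.0282, edgeR adjusted p = 0.456). AFDN, the gene of the actin-binding protein afadin, had a log2 fold change of -0.38 (unadjusted p = 0.0618, edgeR adjusted p = 0.505), and CDH1, the gene of E-cadherin, had a log2 fold change of -0.31 (unadjusted p = 0.227, edgeR adjusted p = 0.684). Of 6 desmosome genes 4 were higher and 2 lower (median 0.08), with DSP, the gene of desmoplakin, at 222 and 204 CPM in IMP1-OE against 291 and 276 CPM in null (unadjusted p = 0.0456, edgeR adjusted p = 0.484). PKP3, the gene of plakophilin-3, had a log2 fold change of 0.27 (unadjusted p = 0.182, edgeR adjusted p = 0.644).

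Of 9 tested genes of junction contractility 5 were lower and 4 higher (median log2 fold change -0.03). MYH14, a non-muscle myosin heavy chain of epithelia, was at 382 and 414 CPM in IMP1-OE against 596 and 873 CPM in null, 1.84-fold lower (unadjusted p = 0.00816, edgeR adjusted p = 0.435). MYLK, the gene of a myosin light chain kinase that opens tight junctions, had a log2 fold change of 0.52 (unadjusted p = 0.130, edgeR adjusted p = 0.595). Of 11 tested polarity genes 7 were lower and 4 higher (median -0.16), and 0 had an unadjusted p under 0.05. Those with the smallest p were PRKCZ, an atypical protein kinase C, at 55.0 and 50.6 CPM in IMP1-OE against 36.6 and 43.2 CPM in null, and LLGL2, a basolateral polarity protein, at 104 and 104 CPM against 124 and 134 CPM in null.

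Of 16 transcription factors that are known to act on claudin genes, 9 were tested, 7 lower and 2 higher (median log2 fold change -0.11), and 0 had an unadjusted p under 0.05. The epithelial factor GRHL2 was at 56.1 and 54.3 CPM in IMP1-OE against 69.2 and 79.8 CPM in null (unadjusted p = 0.0552). VDR, the vitamin D receptor, was at 27.9 and 27.8 CPM in IMP1-OE against 20.5 and 10.2 CPM in null (unadjusted p = 0.0581, edgeR adjusted p = 0.503). Whether any of these factors bears on the claudin levels was not tested. TWIST1 and ZEB1, repressors of epithelial genes, had no count in any library. Other factors of the list were found. SNAI1 had 28 and 21 counts in IMP1-OE and 50 and 8 in null, and its groups overlapped (log2 fold change -0.31, unadjusted p = 0.744). ZEB2 had 0 and 0 counts in IMP1-OE and 6 and 0 in null, and SNAI2 had 1 and 0 in IMP1-OE and 0 and 0 in null.

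**Figure D4:**
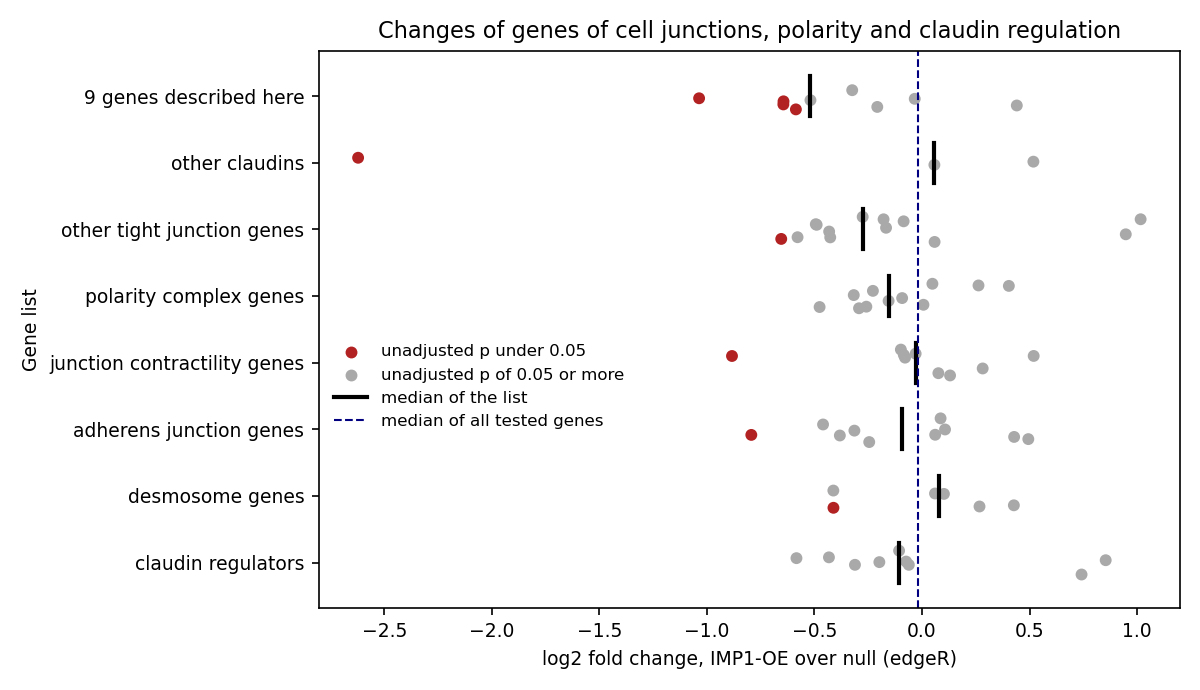
Log2 fold change, IMP1-OE over null (x axis), of every tested gene of each list (rows), in red where the unadjusted p was under 0.05, with a black line at the median of the list and a dashed line at the median of all tested genes (-0.02). The medians are -0.52 for the 9 genes described here, -0.28 for other tight junction genes and between -0.16 and 0.08 for the 6 further lists.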

How the data were processed

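RNA was broken by heat, fragments of 18 to 50 nt were ligated to linkers with random-base identifiers, and cDNA was amplified for 15 PCR cycles, per the labels' protocols. Nothing says whether PCR copies were removed by these identifiers. The deposited table gives kallisto's estimated counts, per the file headers, and all of them were whole numbers. Short fragments can fit several targets, so counts of close paralogs are uncertain. The submitters' processing notes name kallisto 0.46.2, HISAT2 2.1.0, fastp 0.21, cutadapt 3.5 and DESeq, without roles. Since no genome build is named in these sources, coordinates are left out. The authors' deposited comparison table holds log2 fold changes with errors, p-values and adjusted p-values, per the file headers. Another 2 sample names in the count table matched no label and were not analysed.

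Genes were tested on the whole table with edgeR 4.0.16 in R 4.3.3 (TMM scaling, default low-count filter, quasi-likelihood F test, no covariate, threshold 0.05 after Benjamini-Hochberg adjustment over 12113 genes). SEs are the size of the log2 fold change over the square root of F. DESeq2 1.42.0, limma 3.58.1 (voom), the likelihood ratio test, other scalings, no low-count filter, a block for the replicate number, and leaving out each library were tried as alternatives. The steps were tested on simulated counts. The members and lists were chosen with earlier results of these data known. All 9 members are named, and of each other junction list the genes with an unadjusted p under 0.05 or, where fewer than 2 reached it, the 2 with the smallest p. CDH1, SNAI1, SNAI2, ZEB2 and the cell type markers were named after their values were seen.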

Additional observations from a re-analysis of the deposited data

How the results depend on the processing

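With 2 libraries a group, the number of genes called depended on the test: 0 by edgeR's quasi-likelihood test, 22 without the low-count filter, 164 by DESeq2, 155 by the likelihood ratio test, 1 by limma-voom, and 0 to 783 with a library left out. Genes at an unadjusted p under 0.05 ran from 366 to 3015 with a library left out. Of the 9 tight junction mRNAs, 0 to 1 was then called, and 0 to 4 were lower at an unadjusted p under 0.05, against 2 with library totals as the only scaling. CLDN12 had log2 fold changes from -0.70 to 0.54 (positive without null replicate 1) and TJP1 from -0.25 to 0.22 (positive without null replicate 2) in these omissions; TJP1 was at 0.045 with library totals alone; the cause was not tested. The other 7 kept their sign in all 13 alternatives. The summed claudin ratio ran from 0.650 to 0.836 with a library left out.

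With the replicate number as a block, edgeR called 15 genes and 0 of the 9. The labels do not say that a number marks a shared culture or day, and deviations of same-numbered libraries correlated across genes with r = 0.123, so whether same-numbered libraries share a source is unknown and they were not treated as pairs.

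Without length scaling, shares of summed claudin counts in IMP1-OE were 1.74% CLDN1, 24.3% CLDN3, 43.2% CLDN4, 13.8% CLDN7, 4.66% CLDN2 and 10.8% CLDN12, and in null 2.56%, 22.2%, 46.7%, 15.8%, 2.47% and 9.07% in the same order, so that CLDN4 was then the largest. This follows from the lengths of the deposited transcripts.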
